A study of Mus musculus with 3 samples.

Results

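The genes described here are 51 neighbours on proximal mouse chromosome 19 that lie around Rela, out of 22757 named genes in the deposited expression table. They span chr19:5041354-6415216 (GRCm38), a stretch of 1.37 Mb that starts with Brms1 and ends with Rasgrp2. By the annotation, 49 are protein coding and 2 are long noncoding RNA genes, with 24 on the plus strand and 27 on the minus strand. The members were chosen by their position together with their log2(FPKM + 1) differences between these same 3 libraries. The shift they share is therefore a description and no finding, and it supports nothing. FPKM counts sequenced fragments per kilobase of transcript, scaled to the size of the library. It thus allows for transcript length and library size, and a comparison between libraries still depends on the scaling chosen. A gene was counted where its mean over the 3 libraries was at least 1 FPKM, which 50 of the 51 members and 11404 genes in all reached.

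The study sequenced RNA from 3 mouse pancreatic tumour cell lines of a progression model named HI-Panc, 1 library each. The localized line carries the tissue label body wall, the invasive line the label pancreatic tissue and the metastatic line the label liver. All 3 are labelled transgenic with p16-/-, all were grown in DMEM with 10% FBS, and all share 1 treatment text that describes cobalt chloride at 100 ng/ml for 24 h in hypoxic models. Whether the sequenced cells had received it is not stated, and no untreated partner was analysed here. Each stage is 1 line and 1 library, so a difference has no replicate check, no p-value is given, and a comparison is between libraries and not between stages in general. The tissue labels do not follow the stage names in an evident order, and the stage label set the groups.

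The depth behind these values was not given and was estimated from the steps between low FPKM values as 46000000, 41100000 and 43300000 fragments for the localized, invasive and metastatic libraries. Of the 51 members, 40 had at least 1000 estimated fragments in every library, and 48 had at least 100 in every library. These estimates take the longest annotated transcript of each gene. Where a shorter transcript was expressed, the fragments are fewer and the counting intervals given below are too narrow. Between 11115 and 11222 genes reached 1 FPKM in a library. Cdkn2a, the gene of the labelled p16 deletion, was at 0 FPKM in the localized library, against 15.4 (invasive) and 23.6 (metastatic); the table gives 1 value for the gene, so which of its transcripts was counted is not known. The libraries labelled invasive and metastatic thus held Cdkn2a RNA, and the directions given here are those of the libraries as labelled.

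Rela encodes p65, the transactivating subunit of the transcription factor NF-kB. In resting cells p65 is held in the cytoplasm by inhibitors such as the product of Nfkbia, and kinase signals that destroy the inhibitor let it enter the nucleus, where it switches on cytokine, chemokine and survival genes. NF-kB signalling is well known in pancreatic tumours. The segment around Rela is densely packed with genes of unrelated function, among them broadly used genes for actin turnover, splicing and translation and the abundant nuclear RNAs Malat1 and Neat1.

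Rela was measured at 49.96 FPKM in the localized library, 33.2 FPKM in the invasive library and 34.3 FPKM in the metastatic library. The localized library was the highest, and the invasive and metastatic levels lay close together. The FPKM ratio of localized to invasive was 1.505, with a counting interval of 1.43 to 1.56, and the ratio of localized to metastatic was 1.46, with an interval of 1.39 to 1.505. These are 95% intervals from fragment numbers estimated out of the FPKM; they cover counting error only and say nothing of the spread between cultures. In log2(FPKM + 1) the Rela difference was -0.58 for invasive minus localized, -0.53 for metastatic minus localized and 0.05 for metastatic minus invasive. The first and the second of these comparisons share the localized library.

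The Rela promoter is shown because Rela gives the neighbourhood its name. The window of 300 bases spans the transcription start given by RefSeq, most of it upstream, at chr19:5637291-5637590 on the plus strand (GRCm38.p6, RefSeq). Capitals mark the GC box, GGGCGG or its reverse complement CCGCCC, the element that Sp1 family factors recognise.
Rela: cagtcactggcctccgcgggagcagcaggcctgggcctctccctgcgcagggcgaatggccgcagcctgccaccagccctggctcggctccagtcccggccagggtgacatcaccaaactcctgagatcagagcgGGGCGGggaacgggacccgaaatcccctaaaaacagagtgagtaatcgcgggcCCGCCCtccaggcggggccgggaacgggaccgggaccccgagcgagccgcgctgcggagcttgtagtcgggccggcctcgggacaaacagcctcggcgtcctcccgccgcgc
The window holds 2 GC boxes, 31 CpG dinucleotides and 71.3% G or C. The Malat1 window is shown as the contrast, at chr19:5802623-5802922 on the minus strand, because Malat1 had the second largest difference among the members for invasive minus localized, after Cst6.
Malat1: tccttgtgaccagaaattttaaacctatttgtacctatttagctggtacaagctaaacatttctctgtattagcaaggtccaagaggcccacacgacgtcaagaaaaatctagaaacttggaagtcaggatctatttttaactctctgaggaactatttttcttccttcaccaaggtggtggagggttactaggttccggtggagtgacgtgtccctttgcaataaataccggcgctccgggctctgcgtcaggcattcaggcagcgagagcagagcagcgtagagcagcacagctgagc
It holds no GC box, 10 CpG dinucleotides and 47.0% G or C.

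Across the 50 members past the filter, the median difference was -0.49 for invasive minus localized, with quartiles of -0.71 and -0.21 and a range of -2.09 to 0.59. For metastatic minus localized the median was -0.47, with quartiles of -0.70 and -0.11 and a range of -2.11 to 0.55. The median FPKM ratio of localized to either other library was 1.44. For metastatic minus invasive the median was 0.04, with quartiles of -0.09 and 0.11. The localized library thus held the highest level for most members, and the other libraries were near each other.

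The localized library was the highest for 41 of the 50 members (82.0%), the invasive library for 5 and the metastatic library for 4. Among the 11354 other genes past the filter the localized library was the highest for 41.4%. In the invasive library 20 members were at least 1.5-fold lower than in the localized library, where 11.9% of all genes past the filter were, and 1 was at least 1.5-fold higher, where 15.1% were. At 2-fold, 5 members were lower, against 6.07% of all genes, and 0 were higher, against 8.78%. In the metastatic library 17 members were at least 1.5-fold lower than in the localized library, against 14.1% of all genes, and 0 were higher, against 15.9%. At 2-fold, 7 were lower, against 7.29%, and 0 were higher, against 9.08%. The contrasts against the localized library chose the members, so nothing is read from these counts. Between the metastatic and invasive libraries, 2 members were at least 1.5-fold lower, against 5.35% of all genes, and 0 were higher, against 3.51%. At 2-fold, 1 was lower, against 1.67%, and 0 were higher, against 1.33%.

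**Figure D1:**
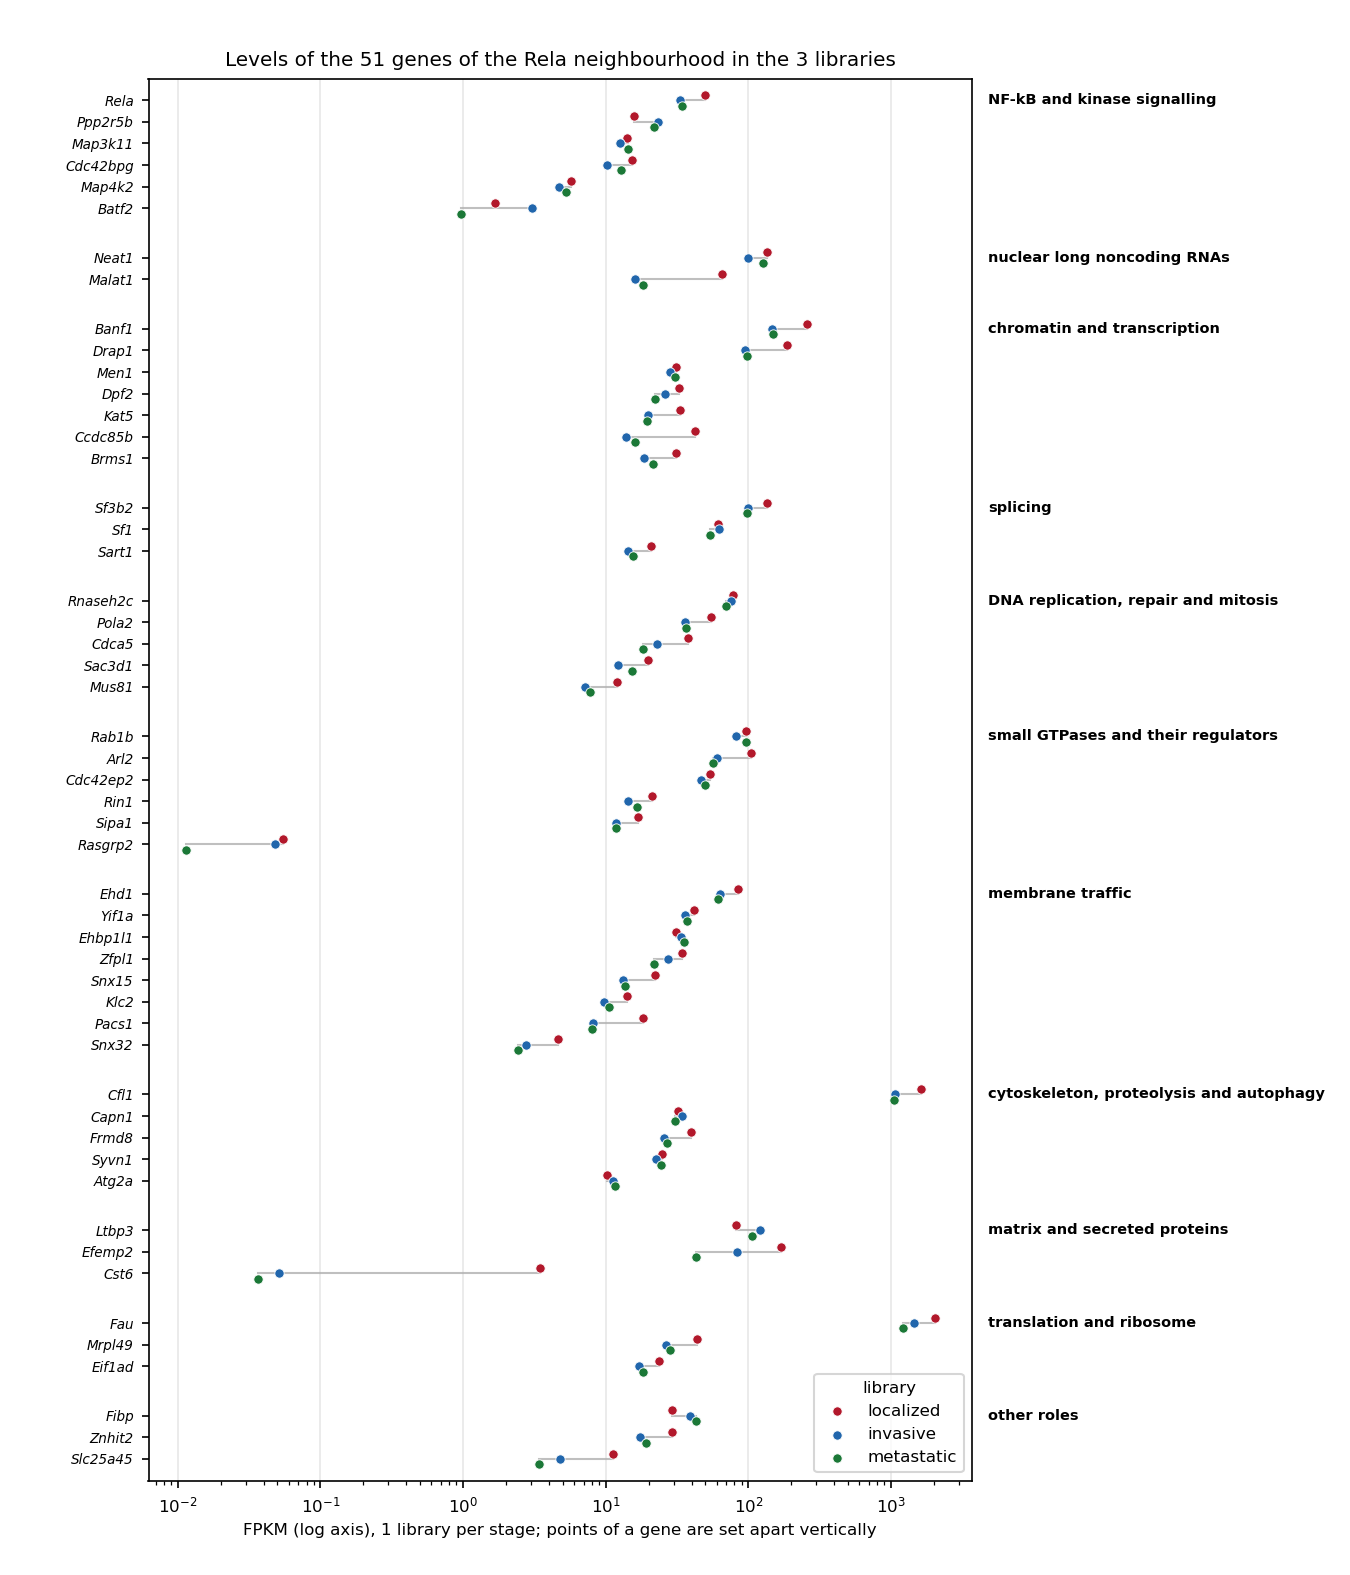
FPKM of each of the 51 members on a log axis, grouped by role, with 1 point per library (red localized, blue invasive, green metastatic) and a grey line over the range. The red point is the rightmost for 41 of the 50 members past the filter, and Rasgrp2, the 1 member that did not pass it, sits at the far left with Cst6 in the invasive and metastatic libraries.

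The members form a shift of moderate size and not a set of large changes. For 29 members the FPKM ratio of localized to invasive lay between 1.2 and 2, and for 26 the ratio of localized to metastatic did. A total of 41 members were below 0 in both comparisons against the localized library and 5 were above 0 in both. Of the 11354 other genes past the filter, the localized library was the highest for 41.4% and the lowest for 41.9%. At 1.5-fold, 14 members were lower in both. The share of all genes was not computed for this count or for the ratios between 1.2 and 2. Both comparisons share the localized library and chose the members, so nothing is read from these counts. The spread of the members, as the distance between quartiles, was 0.50 for invasive minus localized, against 0.62 for all other genes. It was 0.59 against 0.66 for metastatic minus localized and 0.20 against 0.33 for metastatic minus invasive. The median of the mean levels was 27.4 FPKM for the members and 13.8 FPKM for all other genes. The part of level in these spreads was not tested. Summed FPKM over the members was 6018 in the localized library, against 4211 (invasive) and 3963 (metastatic). Without Cfl1 and Fau, which hold most of it, the sums were 2378, 1691 and 1683 FPKM.

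**Figure D2:**
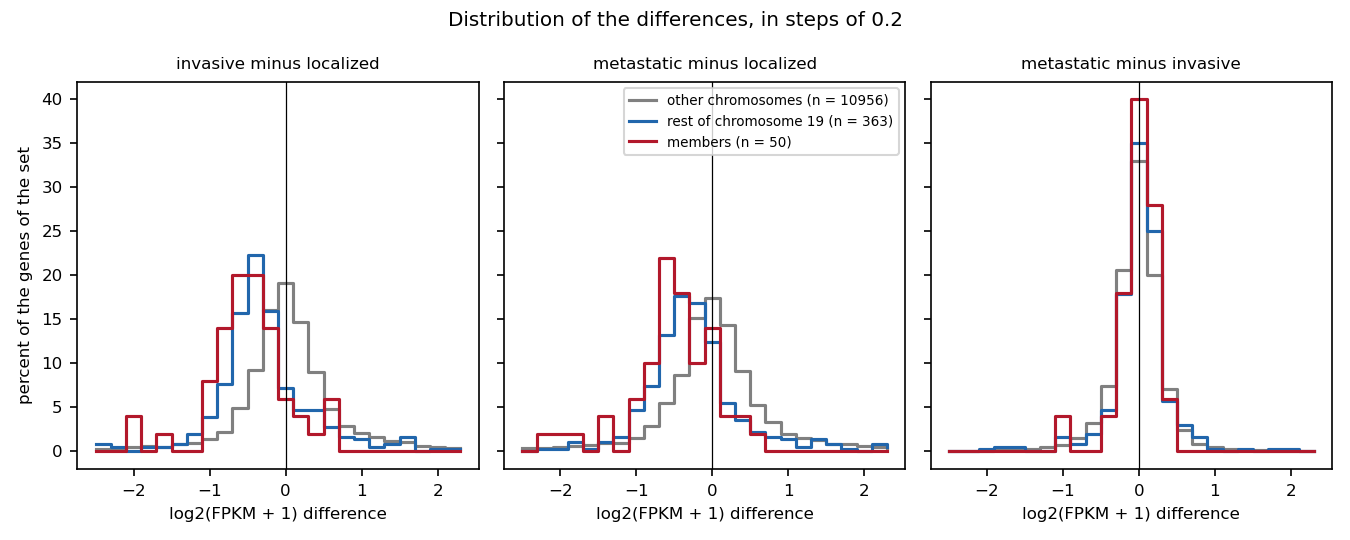
Percent of genes in steps of 0.2 of the log2(FPKM + 1) difference, for the 50 members (red), the 363 other genes of chromosome 19 (blue) and the 10956 genes of other chromosomes (grey). The red and blue curves peak left of 0 in both comparisons against the localized library, with member medians of -0.49 and -0.47, and all 3 curves peak at 0 between the metastatic and invasive libraries.

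Of the members in NF-kB and kinase signalling, Rela showed the difference given above and the others ranged to both sides of 0. The kinases Map3k11, which feeds the JNK pathway, and Map4k2, of the germinal centre kinase family, stayed within 1.5-fold, with differences of -0.16 and -0.24 for invasive minus localized. Map3k11 was at 14.2, 12.6 and 14.3 FPKM and Map4k2 at 5.73, 4.69 and 5.31 FPKM in the localized, invasive and metastatic libraries; exons of Map3k11 overlap those of Pcnxl3. Cdc42bpg, a kinase that binds Cdc42, was at 15.2, 10.3 and 12.9 FPKM in the same order. Ppp2r5b, a regulatory subunit of protein phosphatase PP2A, ran the other way, at 15.9 FPKM in the localized library against 23.4 (invasive) and 21.7 (metastatic). Its differences were 0.53 and 0.43. Batf2, a basic leucine zipper factor, was at 1.69, 3.03 and 0.965 FPKM, the highest in the invasive library. Batf2 rests on only 107, 175 and 58.6 estimated fragments and overlaps exons of Arl2 on the opposite strand; no source used here says whether the authors' counting used strand, so reads of such pairs cannot be told apart.

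Both nuclear long noncoding RNAs were highest in the localized library, by unequal amounts. Of all genes past the filter 41.6% were highest there, and this contrast chose the members. Malat1, which sits in nuclear speckles, was at 65.2 FPKM in the localized library, against 16.01 (invasive) and 18.3 (metastatic). The localized level was 4.07 times the invasive level (counting interval 3.93 to 4.20) and 3.56 times the metastatic level (3.45 to 3.66). Neat1, the scaffold of paraspeckles, lies on the same strand at chr19:5824708-5845478, the next member after Malat1. It was at 136 FPKM in the localized library, against 100.02 (invasive) and 127 (metastatic), with differences of -0.44 and -0.10. The Malat1 difference was thus several times that of Neat1 in log2 in both comparisons, while metastatic minus invasive was 0.18 for Malat1 and 0.34 for Neat1.

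All 7 chromatin and transcription members were highest in the localized library, as were 82.0% of the members and 41.6% of all genes past the filter. This contrast chose the members, so nothing is read from the count of a role. Their median difference was -0.73 for invasive minus localized and -0.74 for metastatic minus localized. Kat5, the catalytic acetyltransferase of the TIP60 complex, was at 33.2, 19.8 and 19.5 FPKM in the localized, invasive and metastatic libraries. Brms1, a subunit of Sin3 histone deacetylase complexes, was at 31.2, 18.4 and 21.4 FPKM. The FPKM ratio of localized to invasive was nearly the same for these genes, at 1.68 and 1.69. Drap1, which with Dr1 holds back transcription by RNA polymerase II, was at 187, 94.4 and 97.4 FPKM. Banf1, which ties chromatin to the nuclear envelope, was at 256, 146 and 149 FPKM. The largest difference of the group belonged to Ccdc85b, a coiled-coil protein, at 42.2, 13.9 and 16.01 FPKM and differences of -1.53 and -1.34. Ccdc85b overlaps exons of Fosl1. Men1, which encodes menin, varied little, at 30.9, 28.4 and 30.7 FPKM, and Dpf2, a subunit of the SWI/SNF complex, was lowest in the metastatic library at 22.1 FPKM, against 26.1 (invasive) and 32.6 (localized).

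Splicing and translation genes were among the members of high level. Sf3b2, of the U2 snRNP, was at 136, 99.2 and 98.3 FPKM in the localized, invasive and metastatic libraries. Sart1, of the tri-snRNP, was at 20.8, 14.4 and 15.5 FPKM. Sf1, the branch point binding protein, lies at the far end of the segment and did not follow them, at 61.6, 62.7 and 54.0 FPKM. Fau, which encodes a ubiquitin-like protein fused to a small-subunit ribosomal protein, was at 2022, 1458 and 1221 FPKM, the highest level of any member. Mrpl49, of the mitochondrial ribosome, was at 43.4, 26.5 and 28.0 FPKM, and Eif1ad was at 23.6, 17.0 and 18.2 FPKM. All 3 translation members were highest in the localized library, where 41.6% of all genes past the filter were, and this contrast chose the members. Of these 3, Fau alone was lower in the metastatic than in the invasive library, with a difference of -0.25.

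All 5 members of DNA replication, repair and mitosis were highest in the localized library, against 41.6% of all genes past the filter. This contrast chose the members, so the count says nothing of the role. Their median difference was -0.66 for invasive minus localized and -0.56 for metastatic minus localized. Pola2, a subunit of the DNA polymerase alpha that starts new strands, was at 55.1, 35.9 and 36.7 FPKM in the localized, invasive and metastatic libraries. Mus81, a nuclease that cuts branched DNA, was at 11.9, 7.20 and 7.79 FPKM. Cdca5 encodes sororin, which protects cohesion of sister chromatids, and was lower at each step from localized to invasive to metastatic, at 38.0, 22.7 and 18.3 FPKM. Sac3d1, a centrosome protein gene, was at 19.8, 12.2 and 15.3 FPKM. Rnaseh2c, a subunit of the enzyme that removes ribonucleotides from DNA, was nearly level at 77.8, 75.2 and 69.6 FPKM, and its exons overlap those of Kat5.

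Small GTPase genes and their regulators also had all 5 members past the filter below 0 in both comparisons against the localized library. Of all genes past the filter, 50.2% were below 0 for invasive minus localized and 49.6% for metastatic minus localized. These contrasts chose the members, so nothing is read from this count. Arl2, which acts in tubulin folding, was at 103.9 FPKM in the localized library, against 59.8 (invasive) and 56.7 (metastatic). Sipa1, which switches off Rap1, was at 16.9, 11.8 and 11.9 FPKM, and Rin1, which activates Rab5, was at 21.1, 14.3 and 16.7 FPKM. Rab1b, which serves transport from endoplasmic reticulum to Golgi, was at 96.4, 82.3 and 96.3 FPKM, and Cdc42ep2, a Cdc42 effector, at 53.5, 46.3 and 49.8 FPKM. Of these 5 members, only Arl2 was lower than in the localized library by at least 1.5-fold, in both comparisons. Rasgrp2, an activator of Rap1 known from blood platelets, was near nothing, at 0.0543, 0.0481 and 0.0114 FPKM, or 21.5, 17.1 and 4.27 estimated fragments. The ratio of localized to invasive was 1.13 with a counting interval of 0.586 to 2.32, so no difference was detectable at this depth, and the ratio of localized to metastatic was 4.75 with an interval of 1.76 to 20.7.

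Membrane traffic genes held 1 of the larger members. Pacs1, a sorting protein of the trans-Golgi network, was at 18.3 FPKM in the localized library, against 8.11 (invasive) and 8.02 (metastatic). The localized level was 2.26 times the invasive level, with a counting interval of 2.12 to 2.38. Snx15, a sorting nexin, was at 22.3, 13.3 and 13.7 FPKM, and its relative Snx32 was at 4.64, 2.77 and 2.44 FPKM. Snx32 overlaps exons of Cfl1, whose level is far higher. Ehd1, which acts in endocytic recycling, was at 84.5, 63.1 and 61.1 FPKM, and Klc2, a kinesin light chain, at 14.1, 9.81 and 10.6 FPKM. Zfpl1, a Golgi protein gene, was at 34.2, 27.5 and 21.9 FPKM, a difference of -0.31 for invasive minus localized and -0.62 for metastatic minus localized. Yif1a, which acts between endoplasmic reticulum and Golgi, was at 41.4, 35.7 and 37.3 FPKM. Ehbp1l1, which binds Rab8, was the 1 traffic member above 0 in both comparisons, at 31.0, 33.5 and 35.7 FPKM.

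Cfl1, which encodes the actin-severing protein cofilin, was at 1619 FPKM in the localized library, against 1062 (invasive) and 1058 (metastatic). Its ratio of localized to invasive was 1.52, while Capn1, Syvn1 and Atg2a were nearly level. Capn1, a calcium-dependent protease, was at 32.2, 34.4 and 30.4 FPKM, and Syvn1, the Hrd1 ubiquitin ligase of the endoplasmic reticulum, at 24.7, 22.5 and 24.4 FPKM. Atg2a, a lipid transfer protein of autophagy, was slightly lower in the localized library, at 10.2 FPKM against 11.3 and 11.7. Frmd8, which stabilises the iRhom and ADAM17 sheddase complex, was at 39.7, 25.7 and 27.0 FPKM.

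The matrix and secreted members spread the furthest. Cst6 encodes the secreted protease inhibitor cystatin E/M. It was at 3.46 FPKM in the localized library, against 0.0514 (invasive) and 0.0366 (metastatic). These are 598, 7.97 and 5.97 fragments, estimated with its longest annotated transcript of 3951 bases. The localized level was 67.4 times the invasive level, with a counting interval of 33.7 to 155, and 94.8 times the metastatic level, with an interval of 42.8 to 257. Its log2(FPKM + 1) differences of -2.09 and -2.11 understate this, as they do for any gene of low level. Cst6 was also the member just inside the filter and passed it through the localized library alone, while Rasgrp2 was the member just outside.

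Efemp2, which encodes fibulin-4, a protein of elastic fibres, was at 169, 83.9 and 43.2 FPKM in the localized, invasive and metastatic libraries. It and Batf2 were the members lower in the metastatic than in the invasive library by at least 1.5-fold, with differences of -0.94 and -1.04. Ltbp3, which holds latent TGF-beta in the matrix, went the other way, at 82.1 FPKM in the localized library, against 120.4 (invasive) and 106 (metastatic). Fibroblast marker genes moved with the localized library: their summed level over 8 of 8 listed genes was 565, 90.4 and 13.9 FPKM in the localized, invasive and metastatic libraries. Efemp2 followed the order of the sum, as did Col1a1, Col1a2, Col3a1, Dcn, Lum and Thy1. Pdgfra, at 42.7, 1.09 and 1.97 FPKM, and Pdgfrb, at 8.37, 0.838 and 1.84 FPKM, were lowest in the invasive library. All 8 fibroblast markers reached 1 FPKM in the localized library and 4 did in each of the others, and none was at 0 in every library. The sum of the epithelial markers ran the other way, at 1195, 6280 and 6786 FPKM over 9 genes, of which 4, 7 and 6 reached 1 FPKM. The keratin genes Krt8, Krt18, Krt19 and Krt7 held most of these sums. Cdh1 was at 20.7, 218 and 118 FPKM and Epcam at 0.209, 1.31 and 2.63 FPKM. Cldn7 was lowest in the metastatic library, at 0.676, 1.33 and 0.244 FPKM, and Cldn4 and Esrp1 did not exceed 0.0891 FPKM. The part of either marker group in the members' differences was not tested, and in bulk RNA fewer cells of a type and less RNA per cell cannot be told apart. Markers of the labelled sites were at or near 0: no acinar marker exceeded 0.0343 FPKM, no hepatocyte marker 0.528 FPKM and no skeletal muscle marker 0.589 FPKM.

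Among the remaining members, Slc25a45, a mitochondrial carrier, was at 11.3, 4.76 and 3.42 FPKM in the localized, invasive and metastatic libraries, at least 2-fold lower in both others. Znhit2, a zinc finger HIT protein gene, was at 29.3, 17.5 and 19.2 FPKM. Fibp, which encodes a protein that binds acidic fibroblast growth factor inside the cell, was the reverse, at 29.1, 39.0 and 43.2 FPKM, with differences of 0.41 and 0.55. The members above 0 in both comparisons against the localized library were Fibp, Ltbp3, Ppp2r5b, Ehbp1l1 and Atg2a. Ehbp1l1 and Ltbp3 are next to each other in the order of the members, as are Ppp2r5b and Atg2a, and Fibp stands between Ccdc85b and Efemp2, both of which were below 0.

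Split by strand, by level or by overlap with another gene, the members kept medians below 0. The members were chosen by these same differences, so the splits are a description and no check of the shift. The 23 plus-strand members past the filter had median differences of -0.41 and -0.32 against the localized library (invasive, then metastatic), and the 27 minus-strand members -0.60 and -0.56. By mean level, the lower, middle and upper classes of members had median differences of -0.52, -0.46 and -0.45 for invasive minus localized and -0.40, -0.54 and -0.46 for metastatic minus localized, with class limits at 19.9 and 37.8 FPKM. Exons of 15 members overlap those of another gene past the filter, and the 35 other members past it had medians of -0.48 and -0.46.

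Some members share a start region with a neighbour on the opposite strand. With starts at most 1000 bases apart there were 6 such head-to-head pairs, 4 of them with both genes among the members. The promoters of Fau, Eif1ad and Cdca5 are printed to show these shared starts: the Fau and Cdca5 windows cover the annotated start of the partner, and the Eif1ad window lies within the transcribed span of Banf1. They lie at chr19:6057697-6057996, chr19:5366563-5366862 and chr19:6084847-6085146, all on the plus strand (GRCm38.p6, RefSeq), and capitals again mark GGGCGG or CCGCCC.
Fau: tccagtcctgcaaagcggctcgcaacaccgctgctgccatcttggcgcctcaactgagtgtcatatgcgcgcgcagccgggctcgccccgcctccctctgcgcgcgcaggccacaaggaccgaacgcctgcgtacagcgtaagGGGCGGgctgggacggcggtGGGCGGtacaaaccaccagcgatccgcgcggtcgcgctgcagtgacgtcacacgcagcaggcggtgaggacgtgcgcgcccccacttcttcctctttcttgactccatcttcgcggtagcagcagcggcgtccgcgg
Eif1ad: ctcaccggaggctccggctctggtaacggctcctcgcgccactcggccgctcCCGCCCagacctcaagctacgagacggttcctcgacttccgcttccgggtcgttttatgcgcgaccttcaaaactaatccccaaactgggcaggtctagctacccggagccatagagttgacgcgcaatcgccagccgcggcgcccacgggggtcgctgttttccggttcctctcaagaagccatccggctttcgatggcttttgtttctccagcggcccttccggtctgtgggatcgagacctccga
Cdca5: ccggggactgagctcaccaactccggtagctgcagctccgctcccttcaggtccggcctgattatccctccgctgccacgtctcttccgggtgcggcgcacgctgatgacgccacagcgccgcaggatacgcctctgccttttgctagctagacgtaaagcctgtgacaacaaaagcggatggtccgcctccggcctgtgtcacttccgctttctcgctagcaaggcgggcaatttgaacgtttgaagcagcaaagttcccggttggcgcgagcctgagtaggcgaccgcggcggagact
Fau holds 2 GC boxes, Eif1ad 1 and Cdca5 none. Fau and Mrpl49, whose starts are 59 bases apart, differed from each other by 0.22 in their log2 differences for invasive minus localized and by 0.11 for metastatic minus localized. Cdca5 and Zfpl1, 27 bases apart, differed by 0.41 and 0.40, and Eif1ad and Banf1, whose transcripts overlap at their starts, by 0.36 and 0.42. Drap1 and the neighbouring AI837181, which is no member, lay closest, with gaps of 0.14 and 0.01. Map3k11 and Pcnxl3, which is no member either, had gaps of 0.22 and 0.27, and Arl2 and Batf2 lay furthest apart for invasive minus localized, with a gap of 1.37.

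The promoters of the members were close in base composition to those of other genes past the filter. RefSeq windows were found for 42 of the 51 members, 53 windows in all; Snx32, Neat1, Snx15, Cst6, Cdc42bpg, Klc2, Batf2, Ehd1 and Brms1 had no entry. Their median was 62.0% G or C and 23 CpG dinucleotides, against 61.0% and 21 in 11042 windows of other genes past the filter and 52.7% and 7 in all 32851 windows. The GC box, on either strand, was in 35 of the 53 windows (66.0%), against 64.0% of the windows of other genes past the filter and 35.7% of all windows. A loose form of the NF-kB site, GGG and CC with 5 bases of any kind between them, which can overlap a GC box, was in 66.0% of member windows, 68.2% of windows of other genes past the filter and 50.8% of all. The NF-kB site of the immunoglobulin kappa enhancer was in none, against 0.235% and 0.155%. The CCAAT box was in 41.5%, against 37.9% and 37.4%. The ETS family core CCGGAAG was in 28.3%, against 18.0% and 8.86%, and the E-box CACGTG was in 5.66%, in windows of Arl2, Kat5 and Pola2, against 10.1% and 7.15%. The palindromic NRF1 site was in none, against 2.09% and 0.971%. Each motif was searched on both strands in windows of the same 300 bases. A match is a description of letters, and the absence of a match says nothing of the factor.

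The genes of the same interval that are not members gave a like picture. Of 27 such genes in the table, 12 passed the filter, and their median difference was -0.40 for invasive minus localized and -0.36 for metastatic minus localized, with 11 of 12 below 0 in each. Fosl1, an AP-1 factor gene that overlaps Ccdc85b, was at 20.4, 7.55 and 9.44 FPKM in the localized, invasive and metastatic libraries. Cd248, which encodes endosialin of fibroblasts and pericytes, was at 22.2, 3.54 and 0.338 FPKM, with differences of -2.35 and -4.12, both further from 0 than those of any member. AI837181 was at 48.8, 26.9 and 25.3 FPKM and Fam89b at 65.1, 43.0 and 41.3 FPKM. The 1 exception was Tm7sf2, a sterol reductase gene of cholesterol synthesis, at 3.04, 11.8 and 9.92 FPKM.

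The shift ran past both ends of the interval. In the 1 Mb before it, 33 genes had median differences of -0.42 and -0.29 against the localized library (invasive, then metastatic), and in the 1 Mb after it 21 genes had medians of -0.34 and -0.27. The nearest genes past the filter before the first member were Slc29a2, at 3.44, 2.198 and 2.45 FPKM, Mrpl11, at 14.8, 10.03 and 11.8 FPKM, and Peli3, at 1.08, 1.24 and 1.43 FPKM. The nearest after the last member were Rps6ka4, at 64.5, 50.6 and 62.0 FPKM, Prdx5, at 331, 259 and 213 FPKM, and Trmt112, at 119.8, 71.4 and 71.7 FPKM. Of these 6 neighbours, only Peli3 was not highest in the localized library.

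On the rest of chromosome 19, 363 genes past the filter had median differences of -0.35 and -0.30 against the localized library, and 0.0049 for metastatic minus invasive. The localized library was the highest for 256 of them (70.5%). The 245 genes beyond 10 Mb from the chromosome's start had the same medians of -0.35 and -0.30. In steps of 1 Mb that held at least 5 genes, 26 of 28 medians (92.9%) were below 0 for invasive minus localized, 24 of 28 (85.7%) for metastatic minus localized and 15 of 28 for metastatic minus invasive. The member medians of -0.49 and -0.47 were further from 0 than these, but the members were picked with the shift in view and the other genes were not, so nothing is called particular to the Rela neighbourhood.

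**Figure D3:**
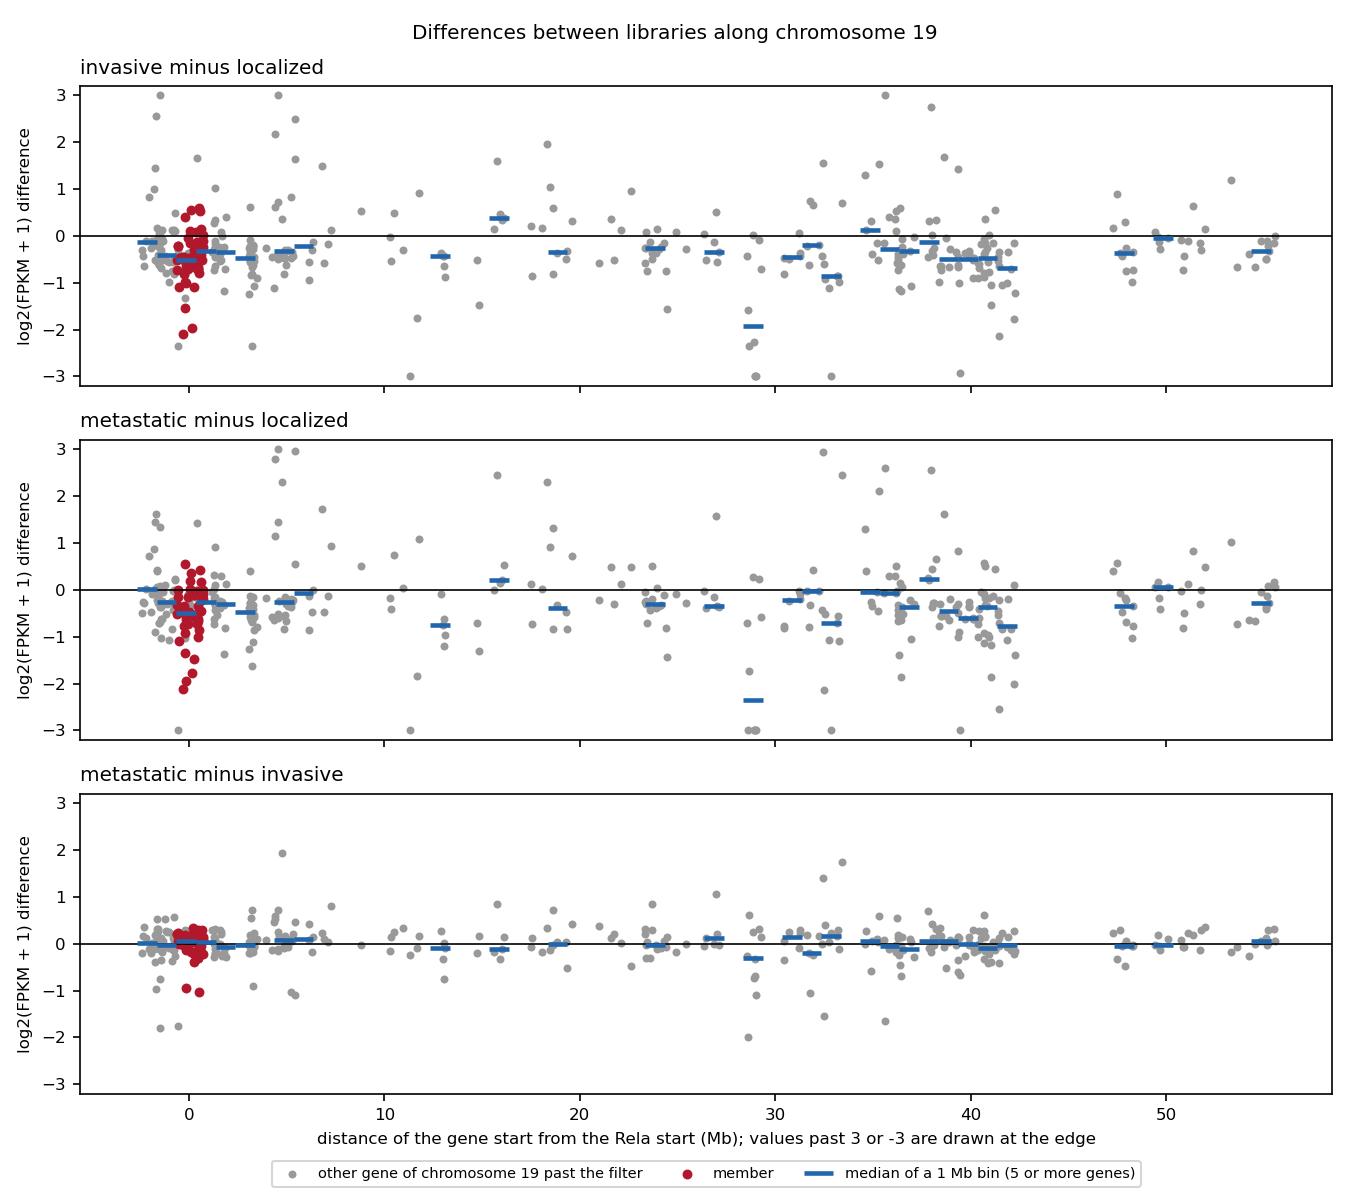
Difference in log2(FPKM + 1) for each gene of chromosome 19 past the filter against the distance of its start from the Rela start in Mb, with members in red, other genes in grey and medians of 1 Mb steps as blue bars. Most blue bars lie below 0 along the whole chromosome in the upper and middle panels (26 and 24 of 28) and scatter around 0 in the lower panel (15 of 28 below).

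Set against the other chromosomes, chromosome 19 had the lowest median of all 20 in both comparisons against the localized library. Its 413 genes past the filter had medians of -0.37 for invasive minus localized and -0.32 for metastatic minus localized. The other 19 ranged from -0.25 (chromosome 4) to 0.33 (chromosome 14) and from -0.25 (chromosome 4) to 0.17 (chromosome 3). For metastatic minus invasive the chromosome 19 median was 0.01, inside the range of -0.26 to 0.25 over the others. The 10956 genes of all other chromosomes together had medians of 0.01, 0.02 and -0.01 in the 3 comparisons, so the libraries as a whole were centred on 0.

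**Figure D4:**
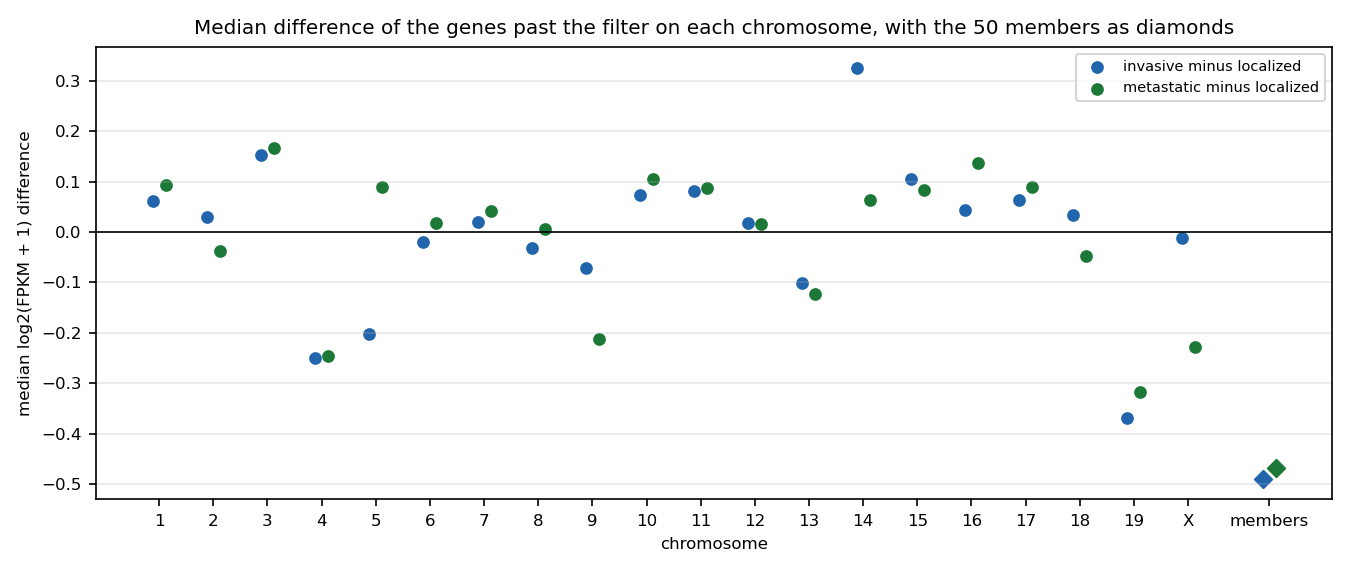
Median log2(FPKM + 1) difference of the genes past the filter on each chromosome, invasive minus localized in blue and metastatic minus localized in green, with the 50 members as diamonds at the right. Chromosome 19 is the lowest point of each colour among the 20 chromosomes, at -0.37 and -0.32, and the member diamonds lie at -0.49 and -0.47.

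Pooled over all lists, genes that work with the members' products had median differences near 0 where they lie on other chromosomes, while single lists departed from 0. Over 16 lists of partners with chromosome 19 genes left out, 141 genes had a median difference of -0.01 for invasive minus localized, with 71 below 0, and of -0.04 for metastatic minus localized, with 79 below 0. At 1.5-fold, 10 of the 141 were lower and 8 higher in the invasive library, where 11.9% and 15.1% of all genes past the filter were. In the metastatic library 16 were lower and 12 higher, where 14.1% and 15.9% of all genes were. The same shares of all genes stand beside the 1.5-fold counts of each list below. The TIP60 complex beside Kat5 had 17 genes past the filter and medians of -0.03 and -0.12, with 0 higher and 1 lower at 1.5-fold in the invasive library and 0 and 2 in the metastatic library. The 11 genes of the SF3A and SF3B splicing complex beside Sf3b2 had medians of 0.01 and -0.02, with none past 1.5-fold in either library. The 10 sister chromatid cohesion genes beside Cdca5 had medians of -0.02 and -0.08, and the largest difference among them belonged to Smc3, itself on chromosome 19, at 50.99, 29.8 and 31.3 FPKM.

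Medians near 0 were also found for the menin-MLL complex beside Men1 (-0.08 and -0.11 over 8 genes) and the SWI/SNF complex beside Dpf2 (0.13 and -0.03 over 15 genes). At 1.5-fold the first had 0 genes higher and 1 lower in each library, which was Psip1, a chromatin tether of the complex, at 97.5, 56.2 and 59.1 FPKM. The actin depolymerisation genes beside Cfl1 had medians of 0.07 and 0.26 over 9 genes, with 1 higher and 0 lower in the invasive library and 4 and 0 in the metastatic library, opposite in sign to Cfl1. The paraspeckle protein genes beside Neat1 had medians of -0.16 and -0.17 over 7 genes, with 1 higher and 0 lower in each library, which was Pspc1, at 13.8, 29.4 and 23.5 FPKM. The 23 housekeeping genes, a list of genes used for reference, had medians of 0.02 and 0.08.

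Some lists departed from 0, also lists with no gene on chromosome 19. The structure-specific endonucleases beside Mus81 had medians of -0.26 and -0.23 over 6 genes, with 0 higher and 0 lower at 1.5-fold in each library. DNA polymerase alpha-primase had medians of -0.48 and -0.28 over 3 genes, with Prim1 at 43.9, 30.2 and 28.3 FPKM and Pola1 at 17.2, 12.1 and 13.97 FPKM in the localized, invasive and metastatic libraries, so that Pola2 and its partners were all highest in the localized library. The latent TGF-beta binding and elastic fibre genes beside Ltbp3 and Efemp2 had medians of -0.79 and -1.25 over 8 genes, with 0 higher and 4 lower at 1.5-fold in the invasive library and 0 and 5 in the metastatic library. Of these, Fbln5 was at 9.89, 1.18 and 0.503 FPKM, Ltbp4 at 42.8, 8.45 and 11.1 FPKM and Fbn1 at 15.3, 2.73 and 1.47 FPKM. Efemp2 lay with them, and Ltbp3 did not. The Hrd1 ubiquitin ligase complex beside Syvn1 had medians of 0.35 and 0.27 over 11 genes, led by Herpud1, a stress-induced cofactor of Hrd1, at 58.6, 184 and 186 FPKM, while Syvn1 was within 1.5-fold.

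For Rela itself the partner lists split. Over 17 other subunits, inhibitors and kinases of NF-kB the medians were 0.10 and 0.08, with 3 higher and 6 lower at 1.5-fold in the invasive library and 4 and 5 in the metastatic library. Of the 17, Chuk (differences of -0.64 and -0.31) and Nfkb2 (-0.89 and -0.93) lie on chromosome 19. Bcl3, Nfkb1, Nfkb2, Nfkbia and Relb are also in the list of target genes, so the lists are not separate. Nfkbia, the inhibitor that is also a target, was at 85.1, 237 and 133 FPKM in the localized, invasive and metastatic libraries. Ikbkg, the regulatory subunit of the kinase complex, was at 21.6, 10.4 and 8.09 FPKM, and Nfkbie, another inhibitor, at 8.51, 4.02 and 2.33 FPKM. The 31 NF-kB target genes past the filter had medians of 0.56 and 0.25, with 15 higher and 8 lower at 1.5-fold in the invasive library and 12 and 10 in the metastatic library. Of all genes past the filter, 15.1% were higher and 11.9% lower in the invasive library, and 15.9% and 14.1% in the metastatic library. For invasive minus localized the largest differences of the list were those of the cytokine genes Csf3, at 0.757, 147 and 88.3 FPKM, and Csf2, at 0.948, 96.2 and 23.6 FPKM, and of the chemokine gene Ccl20, at 3.35, 108 and 145 FPKM, all lowest in the localized library. Other targets, named after their values were seen, were highest there: the chemokine genes Ccl5, at 81.4, 5.11 and 4.25 FPKM, Cxcl10, at 16.3, 1.79 and 0.824 FPKM, and Ccl2, at 417, 162 and 44.96 FPKM. The target genes thus differed from the localized library in both directions.

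**Figure D5:**
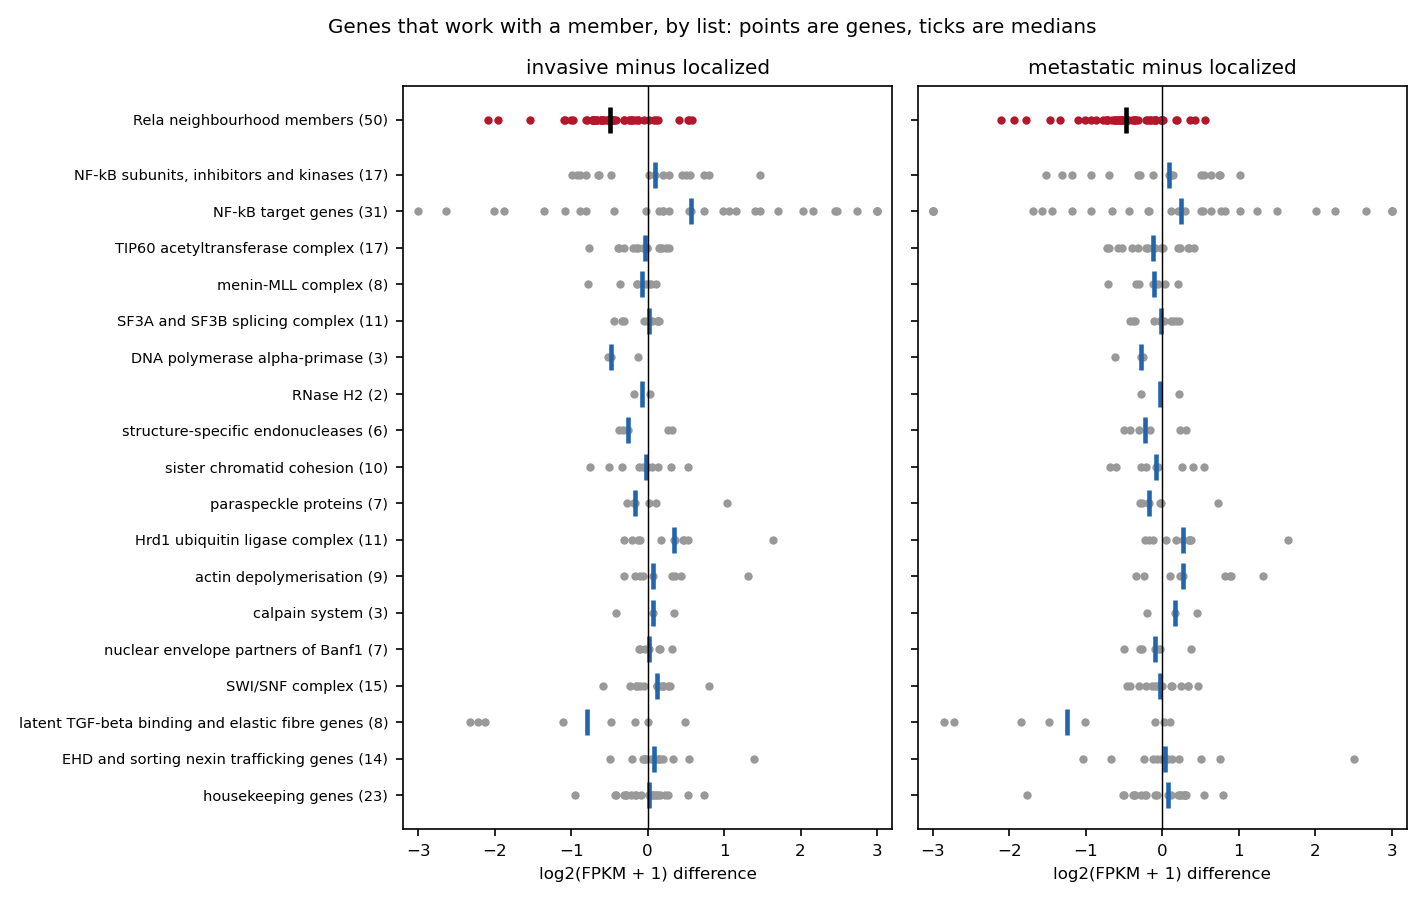
Difference in log2(FPKM + 1) against the localized library for the 50 members (red) and for genes that work with them by list (grey, number of genes in brackets), with a tick at each median and values past 3 or -3 drawn at the edge. The member ticks lie at -0.49 and -0.47, the ticks of most partner lists lie near 0, and the latent TGF-beta binding and elastic fibre list lies at -0.79 and -1.25.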

How the data were processed

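RNA-seq of 3 mouse cell lines, 1 library each, was compared. The authors deposited FPKM for each gene in 1 table (unit per the file headers). Tools named in the submitters' processing notes, with no role or order, are Cufflinks 2.2.1, STAR 2.5.2a and FastQC 0.11.2, on GRCm38; read length and use of strand are not given in the sources used here. The lowest deposited value in each column was 0.1, which was subtracted before every step. Entries without a gene name (27 spreadsheet dates) and 23 short RNA genes were left out of the counts.

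Differences were computed in log2(FPKM + 1) for the 11404 genes with a mean of at least 1 FPKM, with counts at 2-fold and 1.5-fold. Of these, 11369 were placed on GRCm38, 10878 through GENCODE M21 and 491 through RefSeq GRCm38.p6. Intervals on ratios are 95% counting intervals on fragments estimated with the longest annotated transcript of each gene. The members and lists were chosen with earlier results of these data known. Genes named are all members, interval genes and the 3 nearest on each side past the filter, Cdkn2a, marker genes, and up to 3 genes with the largest difference from a list; any others were named after their values were seen. Alternatives were other pseudocounts, filters and scalings, the values as deposited, and members without exon overlap. The code was tested on simulated data and used Python 3.11.15, numpy 2.4.6, pandas 2.3.3, scipy 1.17.1 and matplotlib 3.10.9. An item of the genotype label is not reported here.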

Additional observations from a re-analysis of the deposited data

How the results depend on the processing

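Over 9 alternative settings of the member values and other widths of the flanks and steps, 131 of 141 recomputed values stayed within the limits set for a change and none turned its direction. The member medians ranged from -0.53 to -0.48 for invasive minus localized, from -0.52 to -0.46 for metastatic minus localized and from 0.04 to 0.05 for metastatic minus invasive. The 1 member at least 1.5-fold higher in the invasive than in the localized library, Batf2, gave a count of 0 with a mean of at least 5 FPKM, with the deposited values as they stand, with upper quartile scaling and among the members without exon overlap. Between the metastatic and invasive libraries, a mean of at least 5 FPKM left 0 members at least 2-fold lower and 1 at least 1.5-fold lower. The split by exon overlap was chosen after seeing the data and holds 35 members by construction. Against the localized library, its counts of members lower by at least 1.5-fold were 12 (invasive) and 9 (metastatic), and between the metastatic and invasive libraries 0 at 1.5-fold and 0 at 2-fold. No paired analysis was possible because each group has 1 library, and no library could be left out for the same reason. Depth limits Batf2, Cst6 and Rasgrp2, the members with under 100 estimated fragments in at least 1 library.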

Other observations

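Some other chromosomes also had medians away from 0. On chromosome 14, 385 genes past the filter had a median difference of 0.33 for invasive minus localized, 0.06 for metastatic minus localized and -0.26 for metastatic minus invasive, with 85.7% of the genes lower in the metastatic than in the invasive library. On chromosome 5, 733 genes had medians of -0.20, 0.09 and 0.25 in the same order, with 15.4% lower in the metastatic than in the invasive library. Chromosome 4, with 714 genes, had medians of -0.25, -0.25 and -0.02, the nearest to chromosome 19 in both comparisons against the localized library. Chromosome 9, with 645 genes, had medians of -0.07, -0.21 and -0.17, and the X chromosome, with 352 genes, -0.01, -0.23 and -0.18.

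On chromosome 19 the lowest median of any 1 Mb step lay between 34 and 35 Mb, at -1.92 for invasive minus localized and -2.36 for metastatic minus localized over 10 genes, named here after their values were seen. It holds the interferon-induced genes Ifit1, at 55.2, 5.14 and 1.90 FPKM in the localized, invasive and metastatic libraries, Ifit2, at 16.3, 2.61 and 1.17 FPKM, and Ifit3, at 22.9, 1.65 and 0.645 FPKM. The death receptor gene Fas, at 17.2, 2.58 and 4.504 FPKM, and the smooth muscle actin gene Acta2, at 16.3, 4.76 and 0.461 FPKM, lie in the same step. Lipa, the lysosomal acid lipase gene beside them, was nearly level at 35.8, 36.4 and 43.2 FPKM.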
